A study of Mus musculus with 24 samples.

Results

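Metabolic nuclear receptors are transcription factors that are switched by lipids, bile acids or foreign compounds, or that act without a known natural ligand, and that set the transcription of lipid, bile acid, drug and energy metabolism. They were followed here through all non-control probes whose RefSeq accession belongs to 1 of 10 genes: Ppara, Ppard, Nr1h3, Nr1h4, Nr1i2, Nr1i3, Rxra, Hnf4a, Esrra and Esrrg. This gave 16 probes, of 55681 on the array, where 28331 probes are named for 21368 genes. Ppara has 3 of these probes, Nr1h3, Nr1i3, Rxra and Esrrg have 2 each, and the other receptors have 1 each. For each receptor the probe of highest mean level stands for the gene, and its other probes are described beside it.

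The samples came from 6 male mice, 3 WT (labelled RAP1 WT) and 3 Rap1 KI/KI (labelled RAP1 MUT), each of which gave liver, brain, heart and skeletal muscle, for 24 RNA samples on 1 array each. Rap1 KI/KI mice carry the substitution I312R in both copies of Terf2ip, the gene that encodes the telomere protein RAP1, at the residue that RAP1 needs to bind TRF2 and telomeres. The allele was made by CRISPR/Cas9 editing and backcrossed to C57BL6 by the labels (C57BL/6N by the study's methods), it is present in every cell, and the labels give no treatment for any group. One mouse of each genotype (WT1 and KI1) had reached 5 months of age, and the remaining 4 had reached 2 months. RNA of liver and brain was extracted with one kind of column and RNA of heart and muscle with another made for fibrous tissue, so kit and these pairs of tissues cannot be told apart. The samples are whole tissues, in which fewer cells of a type and less RNA per cell cannot be told apart.

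All of these receptors read a half-site of DNA through a zinc finger domain, and most bind as pairs. Rxra encodes RXR alpha, the shared partner of the PPARs, LXRs, FXR, PXR and CAR. Ppara encodes PPAR alpha, which responds to fatty acids and drives their oxidation in liver, heart and muscle, and Ppard encodes the more widely expressed PPAR delta. Nr1h3 encodes LXR alpha, an oxysterol receptor that controls cholesterol export and lipid synthesis, and Nr1h4 encodes FXR, the bile acid receptor. Nr1i2 and Nr1i3 encode PXR and CAR, which detect drugs and other foreign compounds in the liver and induce the enzymes that clear them. Hnf4a encodes a receptor that binds as a pair with itself and maintains the hepatocyte program, while Esrra and Esrrg encode estrogen-related receptors alpha and gamma, which bind as monomers or pairs, need no estrogen, and drive mitochondrial genes together with the coactivator PGC-1 alpha.

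The receptors differ in the sequence just before their starts, and the following promoters are shown because they belong to the receptors found high in liver alone and to a pair found in all tissues. They come from the RefSeq annotation of GRCm38.p6, cover the 250 bases before an annotated start, read 5′ to 3′ along the gene, and have each CG dinucleotide in capitals. The Hnf4a promoter at chr2:163546905-163547154 (plus strand), the second of its annotated starts, has 4 CG dinucleotides.
Hnf4a: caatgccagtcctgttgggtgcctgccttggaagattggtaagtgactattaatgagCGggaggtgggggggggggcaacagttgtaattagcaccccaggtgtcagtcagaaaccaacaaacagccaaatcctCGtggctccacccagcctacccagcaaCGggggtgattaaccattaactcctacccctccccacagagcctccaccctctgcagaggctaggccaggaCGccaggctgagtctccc
The Nr1h4 promoter at chr10:89506659-89506908 (minus strand) has 5.
Nr1h4: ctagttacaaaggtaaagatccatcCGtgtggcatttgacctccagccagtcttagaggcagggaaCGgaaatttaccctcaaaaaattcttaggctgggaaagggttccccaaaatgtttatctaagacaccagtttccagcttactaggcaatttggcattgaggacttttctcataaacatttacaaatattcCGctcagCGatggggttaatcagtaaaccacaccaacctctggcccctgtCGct
The Nr1i2 promoter at chr16:38294825-38295074 (minus strand) has 2.
Nr1i2: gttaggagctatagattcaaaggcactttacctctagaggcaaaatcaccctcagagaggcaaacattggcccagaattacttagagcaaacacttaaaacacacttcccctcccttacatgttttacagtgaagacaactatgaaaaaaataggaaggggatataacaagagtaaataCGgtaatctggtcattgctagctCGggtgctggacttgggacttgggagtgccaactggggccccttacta
The Nr1i3 promoter at chr1:171213720-171213969 (plus strand) has 2.
Nr1i3: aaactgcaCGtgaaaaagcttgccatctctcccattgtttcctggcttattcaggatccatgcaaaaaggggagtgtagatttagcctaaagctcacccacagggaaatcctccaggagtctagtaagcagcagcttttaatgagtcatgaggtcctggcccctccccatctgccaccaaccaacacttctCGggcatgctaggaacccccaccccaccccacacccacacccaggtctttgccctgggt
The Ppard promoter at chr17:28232504-28232753 (plus strand) has 22.
Ppard: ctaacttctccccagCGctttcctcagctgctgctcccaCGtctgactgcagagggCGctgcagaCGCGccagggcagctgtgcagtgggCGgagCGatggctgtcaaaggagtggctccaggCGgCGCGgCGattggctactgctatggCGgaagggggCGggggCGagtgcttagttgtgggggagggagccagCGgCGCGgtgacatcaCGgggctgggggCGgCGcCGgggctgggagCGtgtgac
The Esrra promoter at chr19:6921809-6922058 (minus strand) has 22.
Esrra: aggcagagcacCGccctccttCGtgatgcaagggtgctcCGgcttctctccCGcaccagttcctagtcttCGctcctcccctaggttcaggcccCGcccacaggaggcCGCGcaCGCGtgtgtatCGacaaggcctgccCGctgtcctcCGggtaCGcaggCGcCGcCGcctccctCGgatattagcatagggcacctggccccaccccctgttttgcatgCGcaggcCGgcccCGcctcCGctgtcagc

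Across 32851 RefSeq promoters of 27025 genes the median was 6 CG dinucleotides, with quartiles of 2 and 16, and a median GC content of 52.4%. The promoters of Hnf4a, Nr1h4, Nr1i2 and Nr1i3 held 2 to 5 and were thus at or below that median. The first annotated Hnf4a promoter held 3. The promoters of Ppara (27), Ppard (22) and Esrra (22) lay above the upper quartile. Rxra has a CG-rich promoter with 40, a count above that of 98.7% of promoters, and a second one with 1. The 2 overlapping Nr1h3 promoters had 7 and 8, and the 4 of Esrrg had 9, 14, 22 and 16. The annotation does not say which start a tissue used.

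**Figure D1:**
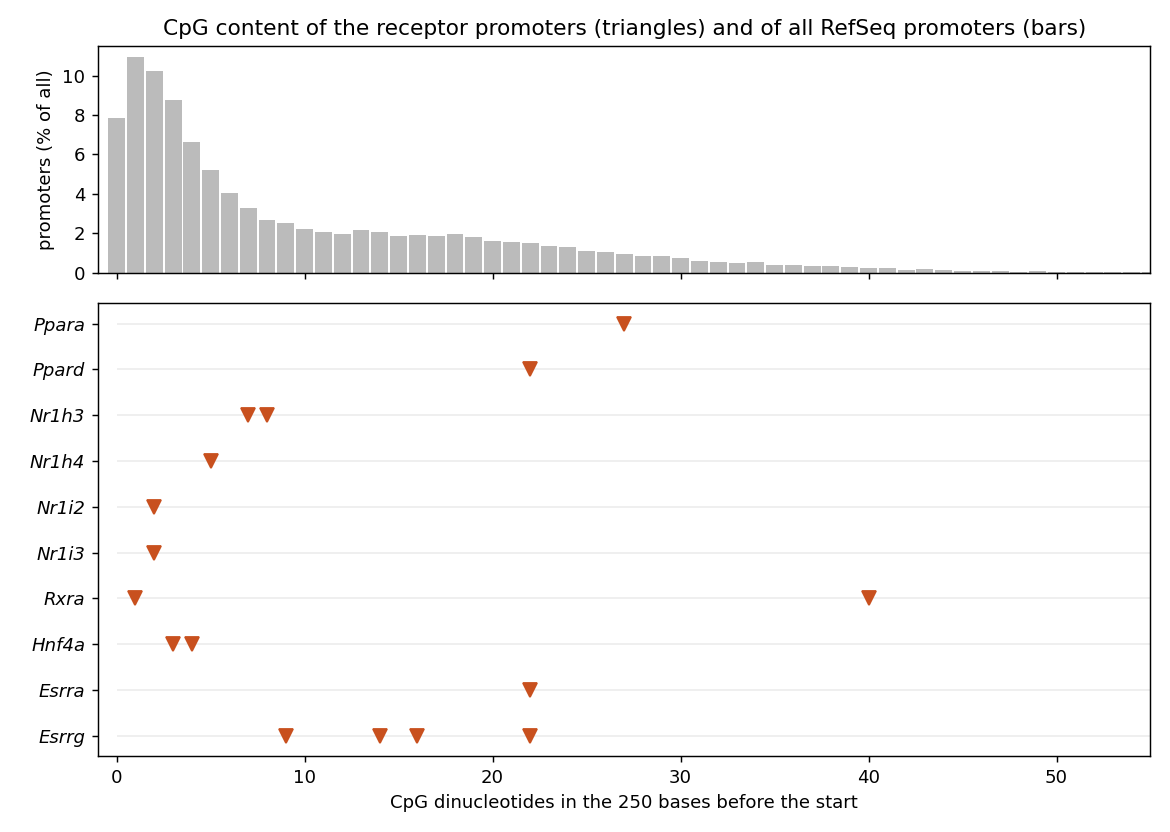
CpG content of the 250 bases before each annotated start. The upper panel shows the share of 32851 RefSeq promoters (%) at each count of CG dinucleotides, and the triangles of the lower panel show the 16 promoters of the 10 receptors on the same horizontal axis, where Nr1i2, Nr1i3, Hnf4a and Nr1h4 lie between 2 and 5 and Ppara, Ppard and Esrra between 22 and 27.

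Short motifs were counted on both strands of the same windows. The half-site AGGTCA was present in 2 of the 16 receptor promoters (Nr1h4 and the second one of Rxra) and in 14% of all promoters. With the base that precedes it in sites of the estrogen-related receptors, AAGGTCA, which overlaps the first motif, it was present in 1 (the second one of Rxra) and in 4.08% of all promoters. A direct repeat of AGGTCA with any 1 base between the copies was present in 0 receptor promoters and 0.0335% of all. GTTAAT, a half-site of the HNF1 proteins, was present in the Nr1h4 promoter 40 to 35 bases before the start and, on the opposite strand, at 2 places in the Hnf4a promoter printed above (81 to 76 and 74 to 69 bases before the start). It was present in 6.43% of all promoters. TATAAA was present in 1 receptor promoter, an Esrrg one, and in 12.4% of all. These matches describe letters in a window and not binding.

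A level is the log2 ratio of a probe's processed signal to its array's 75th percentile, which has level 0 by definition. The 75th percentile was an intensity of 470.7 to 1389, and 56.5% to 72.7% of the probes of an array were well above background by the scanner software's own flag. The labelled tissues carried their markers: the mean level of 8 brain, 8 heart and 8 skeletal muscle markers in their own tissue was at least 5.28, 5.62 and 7.77, and that of 7 liver markers in liver at least 8.35. Some samples also held transcripts of other tissues. The muscle of KI3 had a mean brain marker level of 2.96, against -1.91 to -0.36 in the other muscles, the hearts of KI1 and KI3 had adipocyte marker means of 3.30 and 4.30, against -2.51 to 0.67 in the other hearts, and the brain of WT1 had a liver marker mean of -0.29, against -4.56 to -3.11 in the other brains. Terf2ip itself differed between KI/KI and WT mice by -0.41 to 0.12 on the log2 scale (limma adjusted p of 0.66 to 1), and since I312R is a point mutation, this level does not check the genotype.

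The first question was where each receptor is expressed. Probes measured in at least 1 tissue were compared between tissues with limma over all arrays, each tissue mean being averaged over the genotypes. Most probes of the array differ between any pair of tissues: an adjusted p under 0.05 was reached by 79% of 42463 probes between liver and brain, 66.7% between liver and heart, 71.1% between liver and muscle, 67.7% between brain and heart, 70.2% between brain and muscle, and 43.5% between heart and muscle. Against that background, 8 of the 10 receptors differed between liver and brain, 10 between liver and heart, 10 between liver and muscle, 9 between brain and heart, 7 between brain and muscle, and 5 between heart and muscle. In each comparison with liver, 7 receptors were higher in liver (Ppara, Nr1h3, Nr1h4, Nr1i2, Nr1i3, Rxra and Hnf4a), where 45.6%, 34.4% and 34.9% of all probes were higher in liver than in brain, heart and muscle, and 33.4%, 32.3% and 36.3% lower. Esrrg was lower in liver than in the other 3 tissues, and Ppard and Esrra were lower in liver than in heart and muscle. In brain, 0 receptors were higher than in heart or muscle, where 27.7% and 28.7% of all probes were, while 9 were lower than in heart and 7 lower than in muscle, where 39.9% and 41.4% of all probes were lower. Between heart and muscle, 3 receptors were higher in heart and 2 lower, beside 21% and 22.4% of all probes.

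The receptors' median difference was 5.93 on the log2 scale between liver and brain, 2.93 between liver and heart, and 2.99 between liver and muscle. Over all probes these medians were 0.35, 0.00 and -0.06. Between brain and heart, brain and muscle, and heart and muscle the receptors' medians were -1.88, -2.03 and 0.30, and those of all probes -0.27, -0.30 and -0.07. Tissue and slide overlap in part. All livers and 2 brains lay on 1 slide, 4 brains and 4 hearts on another, and 2 hearts and all muscles on the last. With slide as a block, a choice made after seeing the data, 8, 10, 9, 9, 8 and 3 receptors were called in the order above.

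**Figure D2:**
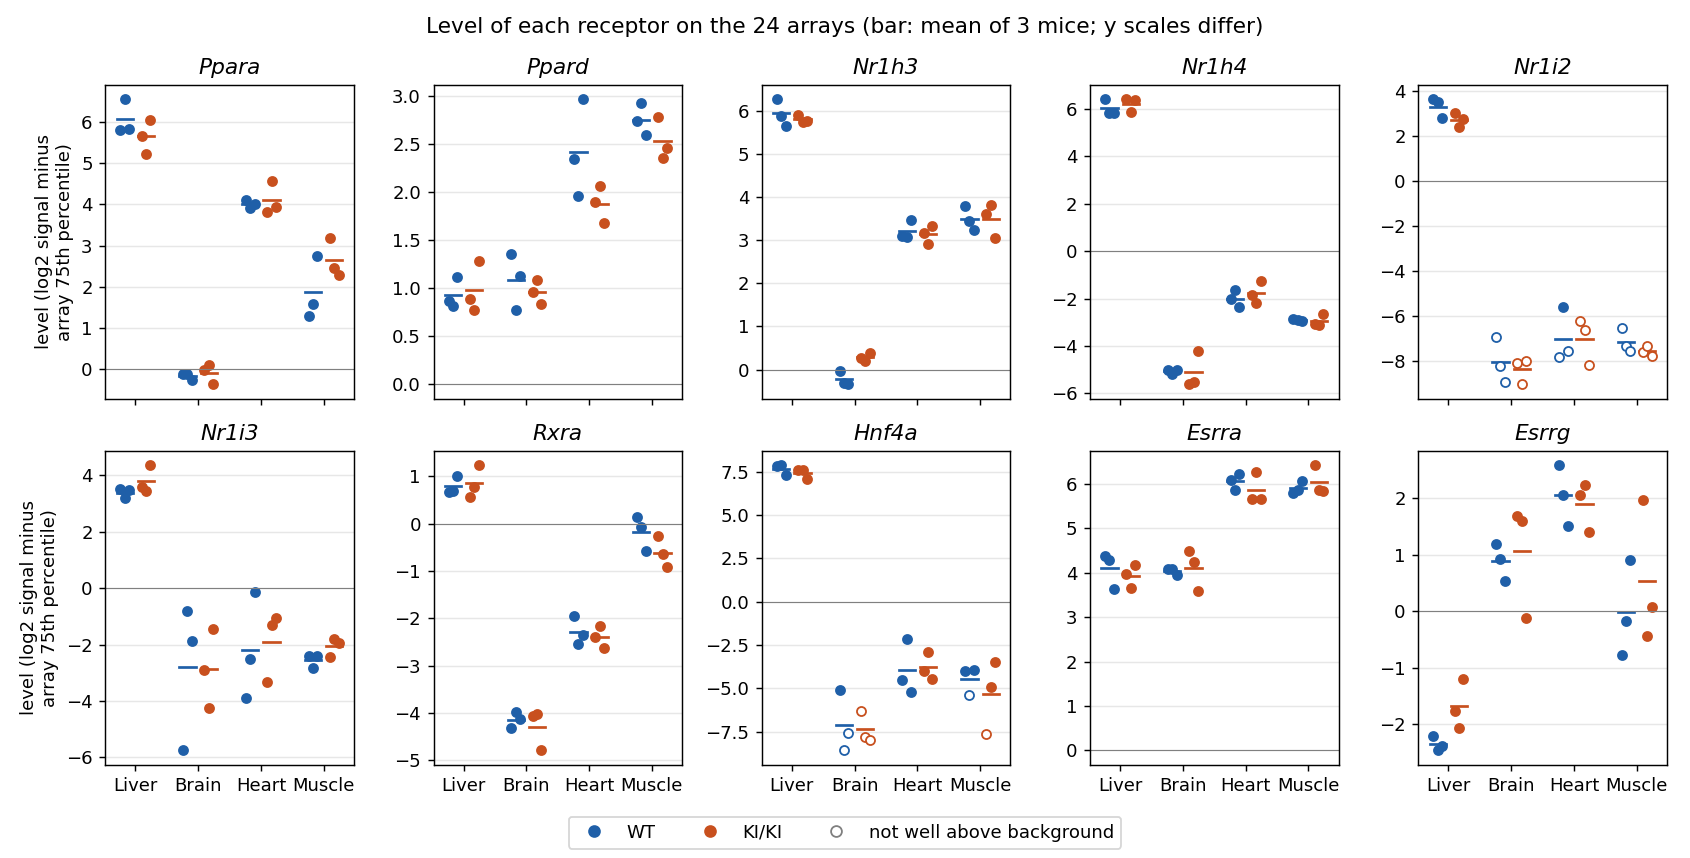
Level of each receptor (log2 signal minus the 75th percentile of the array, vertical axis, scale differing between panels) on the arrays of the 4 tissues. Points are single mice, blue for WT and orange for KI/KI, open where the probe was not well above background, and bars are means of 3 mice. Nr1h4, Nr1i2, Nr1i3 and Hnf4a lie far above all other tissues in liver, Esrra and Ppard are highest in heart and muscle, and Esrrg is lowest in liver.

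Hnf4a, the master regulator of hepatocyte genes, had the largest range of the 10 receptors. Its level in the 6 livers ran from 7.07 to 7.88 with a median of 7.59. In the hearts it ran from -5.20 to -2.16 (median -4.24), in the muscles from -7.60 to -3.45 (median -4.44) and in the brains from -8.58 to -5.12 (median -7.69). No other tissue came near the livers, but heart, muscle and brain spread over 3 to 4 log2 units among mice. Liver exceeded heart by 11.41 (standard error 0.67, 2728-fold, limma adjusted p = 1.09e-11) and the fitted differences were 12.42 from muscle (adjusted p = 2.55e-12) and 14.77 from brain (adjusted p = 1.26e-13). Hnf4a was well above background in 6 of 6 hearts but in 4 of 6 muscles (not in KI1 and WT2) and in 1 of 6 brains (WT1), so the sizes of differences from muscle and brain rest partly on signals at background. Heart and muscle, which were next to each other in the order, differed by 1.00 (standard error 0.67, limma adjusted p = 0.243), and heart exceeded the brain signal by a fitted 3.36 (adjusted p = 0.000195). The fitted difference of brain from muscle, -2.35 (adjusted p = 0.00422), lost its call with KI/KI arrays alone (-2.04, adjusted p = 0.0682), and their order is not resolved.

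The low Hnf4a levels outside the liver lay beside the liver marker transcripts of the same samples. In heart, Hnf4a was -4.50, -2.16 and -5.20 in WT1, WT2 and WT3 and -4.00, -2.91 and -4.47 in KI1, KI2 and KI3, and the liver marker means were -0.86, 1.94 and -0.24, and 1.11, 1.04 and 0.45. The heart of WT2 was highest for both. In muscle, Hnf4a was -3.97, -5.39 and -3.93 in WT and -7.60, -4.91 and -3.45 in KI/KI mice, with liver marker means of 0.03, -1.39 and 0.18, and -2.36, -2.22 and 0.00, and the muscle of KI1 was lowest for both. The 7 liver markers were all well above background in every heart, 5 to 7 were in a muscle and 4 to 7 in a brain, and the part of this signal in the Hnf4a levels was not tested. Within the slide that held brains and hearts, Hnf4a was lower in brain by 4.60 (4 arrays each), and within the slide of hearts and muscles the difference was 0.04 (2 and 6 arrays).

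Nr1h4, the bile acid receptor gene, followed the same order with less spread. Its level was 5.83 to 6.41 in liver (median 6.12), -2.36 to -1.26 in heart (median -1.93), -3.12 to -2.64 in muscle (median -2.92) and -5.63 to -4.19 in brain (median -5.10). No 2 tissues overlapped. Liver exceeded heart by 8.01 (257-fold, limma adjusted p = 1.78e-16), muscle by 9.04 (528-fold, adjusted p = 1.94e-17) and brain by 11.21 (standard error 0.23, 2371-fold, adjusted p = 1.39e-18). The gene was well above background on all arrays, and heart also exceeded muscle by 1.04 (limma adjusted p = 0.00105) and brain by 3.21 (adjusted p = 2.76e-10).

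The foreign compound receptors Nr1i2 and Nr1i3 were likewise highest in liver. Nr1i2 was 2.42 to 3.64 in liver (median 2.92). Outside the liver it was well above background in 1 heart (WT2, -5.62) and on no brain or muscle array. Its level in liver was therefore at least 632-fold that in brain and at least 326-fold that in muscle (limma adjusted p = 4.75e-15 and 1.78e-14), where the bound takes, for each dim array, the weakest signal still well above background. Against heart the fitted difference was 10.05 (standard error 0.41, limma adjusted p = 3.69e-14), with 1 of 6 hearts measured. Differences among brain, heart and muscle concern signals near background. That between brain and heart (-1.18, limma adjusted p = 0.0156) lost its call after quantile normalization (adjusted p = 0.22), with WT arrays alone (0.189) and without WT2, KI1 or KI2. Brain minus muscle, -0.84 (adjusted p = 0.0753), was called with slide as a block (-2.49, adjusted p = 0.0031).

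Nr1i3 ran from 3.19 to 4.36 in liver (median 3.49), from -5.75 to -0.81 in brain (median -2.38), from -3.89 to -0.14 in heart (median -1.92) and from -2.81 to -1.80 in muscle (median -2.41). Liver was above all other samples, and brain, heart and muscle overlapped. Liver exceeded brain by 6.43 (standard error 0.72, 86.0-fold, limma adjusted p = 9.95e-08), heart by 5.63 (49.6-fold, adjusted p = 9.57e-07) and muscle by 5.89 (59.4-fold, adjusted p = 4.86e-07). The 3 other tissues did not differ beyond their spread (limma adjusted p of 0.337 to 0.799). With slide as a block, brain minus muscle turned from -0.53 to 2.36 (adjusted p = 0.069) and brain minus heart from -0.79 to 0.67 (adjusted p = 0.413). The 2 probes of Nr1i3 disagreed outside the liver. The second was 4.23 to 5.23 in liver but well above background on no brain or muscle array and on 3 of 6 heart arrays, so that its level in liver was at least 1743-fold that in brain and at least 899-fold that in muscle. The first probe was well above background on all arrays, and its spread among brains (SD within genotypes 2.09) was larger than that of 99.7% of the probes tested there.

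**Figure D3:**
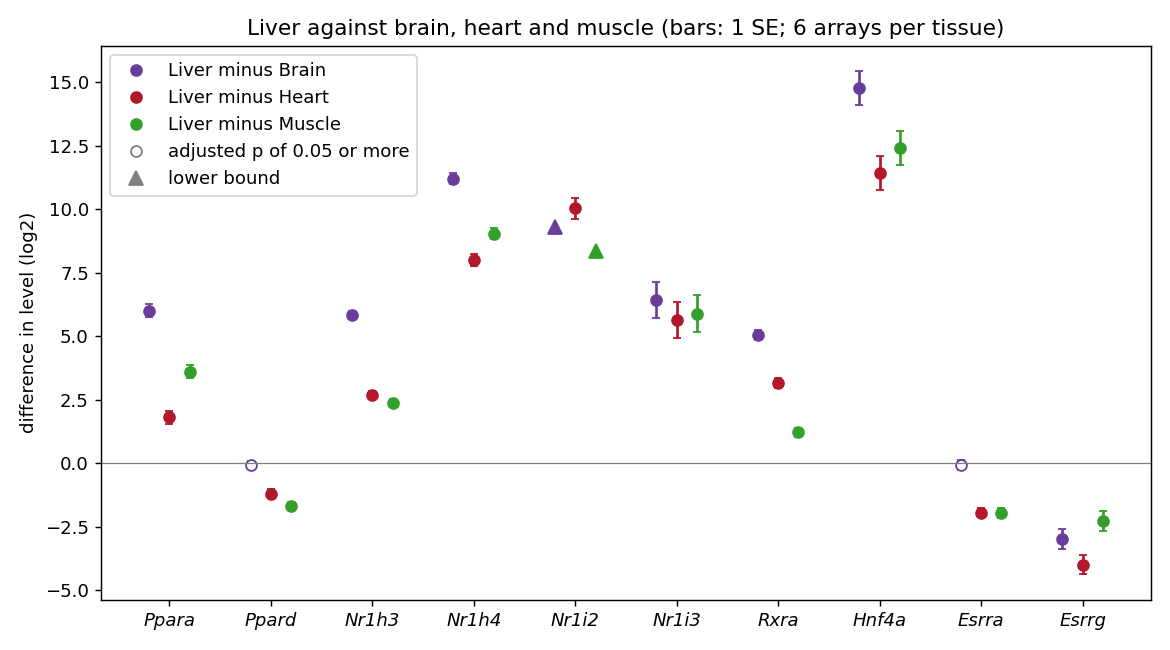
Difference in level between liver and brain (purple), heart (red) and muscle (green) for each receptor on the log2 scale (vertical axis). Filled points passed an adjusted p of 0.05 by limma over all arrays, open points did not, bars are 1 standard error, and triangles are lower bounds for Nr1i2, which was not well above background in brain and muscle. The 7 receptors higher in liver lie above the zero line in all 3 comparisons, and Ppard, Esrra and Esrrg lie at or below it.

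The lipid sensors Ppara and Nr1h3 were highest in liver too, but well expressed in heart and muscle. Ppara was 5.23 to 6.56 in liver (median 5.83), 3.83 to 4.57 in heart (median 3.97), 1.28 to 3.19 in muscle (median 2.37) and -0.38 to 0.09 in brain (median -0.13). The 4 tissues did not overlap. Liver exceeded heart by 1.81 (standard error 0.24, 3.50-fold, limma adjusted p = 1.79e-06), heart exceeded muscle by 1.80 (3.49-fold, adjusted p = 4.78e-06) and muscle exceeded brain by 2.40 (5.29-fold, adjusted p = 3.1e-08). Another Ppara probe kept this order, with 2.18 between heart and muscle (adjusted p = 1.48e-06). The other one showed liver above the rest and brain below, but heart and muscle at means of 0.78 and 0.77 (limma adjusted p = 0.979), so the step from heart to muscle depended on the probe.

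Nr1h3 was 5.65 to 6.27 in liver (median 5.83), 3.05 to 3.82 in muscle (median 3.53), 2.91 to 3.47 in heart (median 3.14) and -0.35 to 0.38 in brain (median 0.09). Liver and brain stood clear of the rest, and muscle and heart overlapped. Liver exceeded muscle by 2.38 (standard error 0.16, 5.19-fold, limma adjusted p = 4.97e-11), heart by 2.70 (6.48-fold, adjusted p = 7.76e-12) and brain by 5.84 (57.3-fold, adjusted p = 5.04e-17). Heart was 0.32 below muscle (adjusted p = 0.104), a difference that passed without WT3 (-0.45, adjusted p = 0.044), without KI3 (-0.48, adjusted p = 0.0302), and without the KI3 muscle and the KI1 and KI3 hearts (-0.54, adjusted p = 0.0306). The second probe gave -0.42 (adjusted p = 0.0541).

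Rxra, the common partner, had yet another order, with muscle next to liver. It was 0.57 to 1.24 in liver (median 0.73), -0.92 to 0.14 in muscle (median -0.42), -2.63 to -1.95 in heart (median -2.38) and -4.79 to -3.97 in brain (median -4.10). The 4 ranges were separate. Liver exceeded muscle by 1.21 (standard error 0.19, 2.32-fold, limma adjusted p = 9.4e-06), heart by 3.17 (8.97-fold, adjusted p = 1.06e-11) and brain by 5.04 (adjusted p = 5.34e-15). The call against muscle was lost with slide as a block (0.95, adjusted p = 0.104), a fit in which liver and muscle are tied only through brain and heart. The second probe kept the order, with means of 0.57, -2.10, -3.07 and -3.43, but a larger step from muscle to liver (2.67, adjusted p = 1.52e-12) and a smaller one from brain to heart (0.37, adjusted p = 0.0267).

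Ppard and Esrra, both tied to oxidative metabolism, were higher in heart and muscle than in liver and brain. Ppard was 2.36 to 2.92 in muscle (median 2.67), 1.68 to 2.97 in heart (median 2.01), 0.77 to 1.36 in brain (median 1.02) and 0.77 to 1.29 in liver (median 0.88). Liver was below heart by 1.19 (standard error 0.17, 2.29-fold, limma adjusted p = 3.25e-06) and below muscle by 1.69 (3.22-fold, adjusted p = 2.66e-08). Liver and brain overlapped and differed by -0.07 (adjusted p = 0.719). Heart was 0.49 below muscle (adjusted p = 0.0226), but this call was lost with WT arrays alone (-0.33, adjusted p = 0.425), with slide as a block (-0.32, adjusted p = 0.337) and in 4 of the 6 fits that left out a mouse (WT1, WT2, KI1 or KI3).

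Esrra was 5.79 to 6.42 in muscle (median 5.87), 5.65 to 6.27 in heart (median 5.98), 3.59 to 4.49 in brain (median 4.09) and 3.63 to 4.37 in liver (median 4.07). All hearts and muscles lay above all livers and brains. Liver was below heart by 1.94 (standard error 0.18, 3.85-fold, limma adjusted p = 1.46e-08) and below muscle by 1.96 (3.88-fold, adjusted p = 1.2e-08). Heart and muscle differed by -0.01 (standard error 0.18, adjusted p = 0.959) and liver and brain by -0.06 (adjusted p = 0.765). After quantile normalization the difference between liver and brain was -0.97 (adjusted p = 3.92e-06), while that normalization put the median of all probes at 0.18 against 0.35.

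Esrrg was the receptor lowest in liver. Its level was 1.40 to 2.58 in heart (median 2.06), -0.12 to 1.69 in brain (median 1.05), -0.78 to 1.96 in muscle (median -0.05) and -2.46 to -1.20 in liver (median -2.13). Every liver lay below every other sample, and brain overlapped with heart and muscle. Liver was below brain by 2.98 (standard error 0.39, 7.90-fold, limma adjusted p = 9.81e-07), heart by 3.99 (15.8-fold, adjusted p = 2.69e-08) and muscle by 2.27 (4.83-fold, adjusted p = 3.91e-05). Heart exceeded muscle by 1.71 (adjusted p = 0.00145), a call lost with KI/KI arrays alone (1.36, adjusted p = 0.141) and with slide as a block (1.19, adjusted p = 0.103). Heart exceeded brain by 1.00 (adjusted p = 0.03), a call lost without WT1, WT2 or KI3 and with KI/KI arrays alone (-0.84 as brain minus heart, adjusted p = 0.282). Brain and muscle differed by 0.71 (adjusted p = 0.114), which turned to -0.30 with slide as a block.

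Within tissues the receptors varied unequally between mice of a genotype. In liver their SD within genotypes was 0.22 to 0.42, beside a median of 0.32 over all probes. In brain, Nr1h3 had an SD of 0.13, larger than that of only 8.15% of the probes, beside 0.57 for Nr1h4, 0.76 for Esrrg and the value of 2.09 for Nr1i3. In heart the largest were those of Nr1i3 (1.60) and Hnf4a (1.26), and in muscle those of Hnf4a (1.60), Esrrg (1.07) and Ppara (0.65), where the medians over all probes were 0.35 and 0.32.

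Genes that these receptors are known to regulate were described from lists of target genes. Over all probes, 45.6%, 34.4% and 34.9% were higher in liver than in brain, heart and muscle, and 33.4%, 32.3% and 36.3% lower. Of 19 listed HNF4A targets, all 19 were higher in liver than in brain, heart and muscle, with median differences of 11.89, 10.55 and 10.99. The apolipoprotein gene Apoa2 exceeded brain by 6.32 and Apoc3 by 11.59. Ttr, the transthyretin gene, exceeded brain by only 2.73 but heart by 9.46 and muscle by 11.46. Of the PXR and CAR targets, 14 of 16 could be tested, and 13 were higher in liver and 1 lower in each comparison (medians 7.73, 5.10 and 8.21). Cyp3a11, a drug-oxidizing cytochrome, exceeded brain by 10.55, and Abcb1a, a drug exporter, was the lower one, at -1.80 against brain, -2.05 against heart and -1.47 against muscle.

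Of the FXR targets, 11 of 12 could be tested. Of these, 9 were higher in liver than in brain, in heart and in muscle (medians 10.35, 8.34 and 9.99), beside 45.6%, 34.4% and 34.9% of all probes. The bile salt exporter gene Abcb11 exceeded heart by a fitted 11.51, with 3 of 6 hearts well above background, and the bile acid ligase gene Slc27a5 exceeded it by 9.94. The probe of Slc10a1, the hepatocyte bile acid uptake gene, had mean levels of 8.30, 8.43, 8.84 and 9.20 in liver, brain, heart and muscle. Its liver level was 0.90 below that in muscle (limma adjusted p = 0.000962), and whether this probe reads the gene was not tested. Slc51a, a bile acid exporter subunit, was lower in liver than in heart by a fitted 5.03, with 0 of 6 livers well above background. Nr0b2, which encodes the FXR-induced repressor SHP, was higher in liver than in heart by 2.50. It was higher in heart than in brain by a fitted 5.35 and than in muscle by a fitted 5.90. It was well above background in 1 of 6 brains and 0 of 6 muscles. The sizes of these 3 differences of Slc51a and Nr0b2 from dim tissues therefore rest on signals at background. The LXR targets were higher in liver for 12 of 13 against brain and 10 of 13 against heart and muscle (medians 3.43, 2.45 and 2.60). Lpl, the lipoprotein lipase gene, went the other way, at -6.13 in liver against heart, and Abcg1, a cholesterol exporter, was 2.01 lower in liver than in brain.

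The PPAR targets split between liver and heart. Of 25, 21 were higher in liver than in brain, 18 higher than in muscle and 13 higher than in heart, where 10 were lower (medians 5.30, 3.90 and 1.83). Over all probes, 45.6%, 34.9% and 34.4% were higher in those comparisons, and 32.3% were lower in liver than in heart. For Fabp3 and Pdk4, a fatty acid binding protein and a kinase that limits glucose oxidation, liver minus heart was -12.05 and -7.11. Between heart and muscle, 14 were higher in heart and 0 lower (median 1.00), beside 21% and 22.4% of all probes. Plin5, a lipid droplet protein, was among the 14 and higher in heart by 2.13 (limma adjusted p = 6.35e-06).

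The targets of the estrogen-related receptors, mostly mitochondrial genes, were lower in brain than in heart and in muscle for all 23 of 24 that could be tested (medians -2.39 and -2.33). Over all probes, 39.9% and 41.4% were lower in brain. Liver was below heart for 21 and above it for 1 (median -1.60), and below muscle for 19 and above it for 2 (median -1.59). Over all probes, 32.3% were below and 34.4% above heart, and 36.3% below and 34.9% above muscle. Between heart and muscle 2 of these targets were higher and 2 lower (median 0.05), beside 21% and 22.4% of all probes. Cox6a2, a cytochrome oxidase subunit of striated muscle, fell short of its heart level by far, with a difference of -7.10 in brain and -11.77 in liver. Mdh2, of the citric acid cycle, differed from heart by -1.76 and -1.56.

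Of 16 coregulators, 7 were higher and 6 lower in liver than in brain (median 0.17), and 4 were higher and 8 lower in liver than in heart (median -0.36). Over all probes, 45.6% were higher and 33.4% lower in liver than in brain, and 34.4% and 32.3% than in heart. Most coregulators were higher in muscle than in each other tissue. Against muscle, 2 were higher and 11 lower in liver (median -0.85), 1 and 11 in brain (median -0.92), and 2 and 11 in heart (median -0.65). Over all probes, 34.9% were higher and 36.3% lower in liver than in muscle, 28.7% and 41.4% in brain, and 21% and 22.4% in heart. Ppargc1a, which encodes PGC-1 alpha, was highest in heart, exceeding liver by 3.30 (limma adjusted p = 2.28e-11), brain by 1.53 (adjusted p = 1.63e-06) and muscle by 1.17 (adjusted p = 0.000104). Med1, the mediator subunit that nuclear receptors contact, exceeded brain, heart and muscle by 2.61, 2.86 and 3.09 in liver. Of 38 other nuclear receptor genes, 36 could be tested, and 18 were higher and 15 lower in liver than in brain (median 0.39), 15 and 10 than in heart (median 0.12), and 10 and 18 than in muscle (median -0.78). Against brain and heart, these counts were not far from the shares of all probes given above. Of these other receptors, Pparg exceeded muscle by 1.13 in liver (limma adjusted p = 0.00944). Nr1h2, which encodes LXR beta, exceeded brain by only 0.70 in liver (adjusted p = 0.000213). Nr4a1 was 6.67 higher in muscle than in liver, and Esrrb was 5.07 higher in heart than in liver (adjusted p = 5.42e-09).

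The genes whose levels followed each receptor most closely over the 24 arrays are given as a description. The arrays share tissues and mice, so that any gene with the same tissue order correlates highly: of 17301 genes compared, 1544 had a Pearson r over 0.9 with Nr1h4, 1468 with Nr1i2, 1346 with Hnf4a and 1063 with Nr1h3, but 68 with Esrrg. Plg, Serpina6 and Aadac were nearest to Hnf4a (r of 0.99 to 1.00), Nat2, Fetub and F10 to Nr1h4 (0.99 to 1.00), and Apob, Otc and Cyp2c39 to Nr1i2 (1.00 each after rounding). Nearest to Nr1i3 were C1rl, Klk1b3 and Car1 (0.96 each), to Ppara Dhrs4, Selenbp1 and Phyh (0.98 to 0.99), to Nr1h3 H6pd, Dpagt1 and Pex11g (0.99 each), and to Rxra Slc38a4, Parp16 and Tmem38b (0.98 to 0.99). Esrra had 3 mitochondrial genes nearest, namely Micos10, Cs and Ndufa5 (0.98 to 0.99). Ppard had Bckdk, Nfe2l1 and Maf1 (0.97 to 0.98), and Esrrg had Ldhb, the heart type lactate dehydrogenase, Rcan2 and Hnrnpa1 (0.94 to 0.97). Among the receptors themselves, Hnf4a and Nr1h4 had an r of 0.98, Nr1h3 and Rxra 0.93, Ppara and Nr1h3 0.92, and Ppard and Esrra 0.91.

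The second question was whether I312R changed any receptor in a tissue. Within each tissue, 3 KI/KI and 3 WT mice were compared with limma over 32382 to 37836 probes. All 10 receptors could be tested in liver, 8 in brain, 9 in heart and 9 in muscle; Nr1i2 outside the liver and Hnf4a in brain were too dim. At an adjusted p under 0.05, 0 receptors were called in any tissue, and 0% of all probes were. At an unadjusted p under 0.05 there was 1 receptor in liver (Esrrg), 1 in brain (Nr1h3), 0 in heart and 0 in muscle, where limma gave 2.13%, 2.62%, 7.51% and 2.48% of all probes tested. The receptors' median difference, KI/KI minus WT, was -0.04 in liver, 0.01 in brain, -0.08 in heart and -0.01 in muscle, and that of all probes -0.01, -0.05, -0.02 and -0.07. About as many receptors were positive as negative: 5 and 5 in liver, 4 and 4 in brain, 4 and 5 in heart, and 4 and 5 in muscle.

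**Figure D4:**
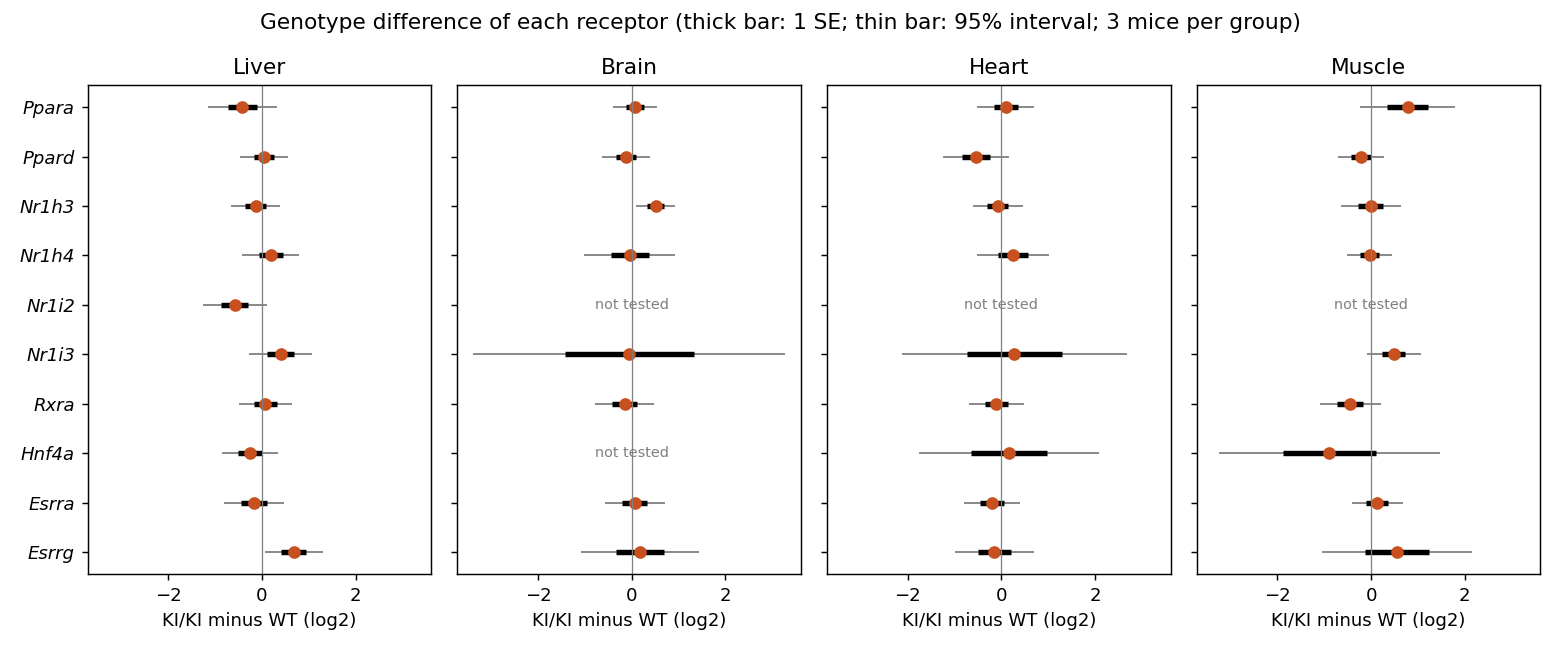
KI/KI minus WT value of each receptor (log2, horizontal axis) in the 4 tissues, with 3 mice per group. Thick bars are 1 standard error and thin bars 95% intervals from limma, and receptors too dim to test are marked. The intervals of Esrrg in liver (0.05 to 1.30) and Nr1h3 in brain (0.09 to 0.93) lie above zero, and the other intervals include it.

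Nr1h3 in brain was the receptor with the smallest unadjusted p. Its level was -0.04, -0.30 and -0.35 in the brains of WT1, WT2 and WT3, and 0.26, 0.21 and 0.38 in those of KI1, KI2 and KI3. All KI/KI brains lay above all WT brains. The difference was 0.51 (standard error 0.17, 95% interval 0.09 to 0.93, 1.42-fold), with an unadjusted p of 0.0251 and an adjusted p of 1.00 by limma. The second Nr1h3 probe gave -1.11, -1.33 and -1.31 in WT brains and -0.56, -1.01 and -0.71 in KI/KI brains, again without overlap, and a difference of 0.49 (standard error 0.19, 95% interval 0.02 to 0.96). Over all 4 tissues, the genotypes did not overlap for 1 receptor in liver (Esrrg), 1 in brain (Nr1h3), 0 in heart and 0 in muscle, beside 5.84%, 7.73%, 14.7% and 6.44% of all probes tested. The brains of WT1 and KI1, which were the older mice and shared a slide, differed by 0.29, and the 4 others, on the other slide, by 0.62. Omission of 1 mouse at a time gave 0.45 to 0.61. With array weights estimated on probes without a missing spot, a choice made after seeing the data, the difference was 0.58 (limma adjusted p = 0.0473). That fit gave the brain of WT3 a weight of 20.1 and the other brains 0.215 to 1.44, and called 3435 probes, whereas weights estimated on all probes called 1.

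Beside this, the macrophage markers in brain had means of -1.95, -1.82 and -1.67 in WT1, WT2 and WT3 and -1.99, -2.05 and -0.11 in KI1, KI2 and KI3. By these means only KI3 lay above the WT brains, and KI1 and KI2 lay below them. The means include Clec4f, well above background in 0 of 6 brains, and Vsig4, in 2 of 6. The markers that could be tested were all positive, from 0.13 (Marco) to 0.79 (Cd5l). The lowest unadjusted p among them was 0.26 by limma (Cd68). Summed marker intensities, relative to the array's upper quartile, overlapped, at 32.6 to 42.1 in WT and 33.6 to 88.1 in KI/KI brains. On each array 6 to 7 of 8 markers were well above background, and their part was not tested. Of the LXR targets, 10 of 13 could be tested in brain, 7 were positive (median 0.17) and 0 passed an unadjusted p of 0.05 by limma. Of all 37836 probes tested in brain, 15844 were positive and 2.62% reached that p. In the other tissues Nr1h3 differed by -0.14 in liver (95% interval -0.66 to 0.39), -0.08 in heart (-0.61 to 0.46) and -0.01 in muscle (-0.65 to 0.63).

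Esrrg in liver, the tissue where it was lowest, was -2.20, -2.46 and -2.39 in WT1, WT2 and WT3 and -1.77, -2.07 and -1.20 in KI1, KI2 and KI3. The genotypes did not overlap, and KI3 was highest. The difference was 0.68 (standard error 0.26, 95% interval 0.05 to 1.30, 1.60-fold), with an unadjusted p of 0.0368 and an adjusted p of 1.00 by limma. The second probe gave -1.93, -2.46 and -2.13 in WT livers and -1.61, -1.93 and -1.06 in KI/KI livers, with a difference of 0.64 (standard error 0.28, 95% interval -0.02 to 1.30). Leaving out 1 mouse at a time gave 0.44 to 0.87. Of 21 targets of the estrogen-related receptors tested in liver, 9 were positive (median -0.03), beside 17095 of all 35240 probes.

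Ppara in liver was 5.82, 6.56 and 5.85 in WT and 5.68, 5.23 and 6.07 in KI/KI mice, which overlap, and differed by -0.42 (95% interval -1.15 to 0.31). Its other probes gave -0.07 (standard error 0.34) and -0.46 (standard error 0.32) in liver. In muscle Ppara was 1.28, 1.57 and 2.75 in WT1, WT2 and WT3 and 3.19, 2.46 and 2.29 in KI1, KI2 and KI3. The muscle of WT3 lay among the KI/KI muscles. The difference in muscle was 0.78 (standard error 0.43, 95% interval -0.24 to 1.80, limma adjusted p = 0.94) and ran from 0.49 to 1.22 with 1 mouse left out. The other probes gave 0.59 (standard error 0.50) and -0.05 (standard error 0.21) in muscle. In brain and heart Ppara differed by 0.07 (95% interval -0.40 to 0.53) and 0.10 (-0.51 to 0.71).

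Nr1i2 in liver was 3.64, 3.50 and 2.80 in WT and 3.03, 2.42 and 2.75 in KI/KI mice. WT3 lay between the KI/KI livers, and the difference was -0.58 (standard error 0.29, 95% interval -1.27 to 0.10). Nr1i3 in liver was 3.51, 3.19 and 3.47 in WT and 3.57, 3.43 and 4.36 in KI/KI mice. KI3 stood above the others, and the difference was 0.40 (95% interval -0.28 to 1.07). In muscle Nr1i3 differed by 0.49 (-0.09 to 1.06), and in brain and heart its intervals spanned -3.39 to 3.28 and -2.13 to 2.69. The second Nr1i3 probe gave 0.26 in liver (-0.43 to 0.94) and 0.04 in heart (-0.86 to 0.95). It was well above background on no brain or muscle array, so the values there rest on the first probe alone.

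Hnf4a and Nr1h4 in liver, where both are highest, overlapped between genotypes. Hnf4a was 7.81, 7.88 and 7.31 in WT and 7.58, 7.59 and 7.07 in KI/KI livers, a difference of -0.25 (95% interval -0.84 to 0.35). Nr1h4 was 6.41, 5.83 and 5.84 in WT and 6.41, 5.88 and 6.36 in KI/KI livers, a difference of 0.19 (-0.42 to 0.79). Outside the liver the intervals of Hnf4a ran from -1.76 to 2.07 in heart and from -3.25 to 1.46 in muscle, which leave changes of severalfold unresolved.

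Ppard in heart was 2.34, 1.96 and 2.97 in WT and 1.90, 2.06 and 1.68 in KI/KI mice, a difference of -0.54 (standard error 0.30, 95% interval -1.25 to 0.17, limma adjusted p = 0.66). WT2 lay among the KI/KI hearts, and WT3 stood highest. Within slides the difference was -0.17 (2 mice per genotype) and -1.28 (1 per genotype). In muscle Ppard differed by -0.22 (-0.71 to 0.28), and in liver and brain by 0.05 (-0.47 to 0.56) and -0.13 (-0.64 to 0.39). Rxra in muscle was 0.14, -0.07 and -0.57 in WT and -0.27, -0.65 and -0.92 in KI/KI mice, overlapping, a difference of -0.45 (-1.09 to 0.20). Its second probe gave -0.15 there (standard error 0.23).

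Esrra differed by -0.17 in liver (95% interval -0.81 to 0.47), 0.07 in brain (-0.57 to 0.71), -0.20 in heart (-0.80 to 0.39) and 0.13 in muscle (-0.42 to 0.68). These intervals leave out changes beyond 1 log2 unit. Esrrg in muscle was -0.78, -0.18 and 0.90 in WT1, WT2 and WT3 and 1.96, -0.44 and 0.08 in KI1, KI2 and KI3. The KI1 muscle stood highest and the groups overlapped, with a difference of 0.56 (-1.05 to 2.16). Slow fibre markers in the same muscles had means of -0.30, 0.44 and 1.28 in WT and 4.54, -0.37 and 2.51 in KI/KI mice, so that KI1 was highest for both, with summed intensities of 8.09 to 28.3 and 8.46 to 532 times the 75th percentile, and all 8 markers were well above background on every array. Their part in the muscle levels of Esrrg and Ppara was not tested.

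Whether the genotype difference varied between tissues was tested with limma's interaction F test over all arrays. Of 42463 probes, 0% passed an adjusted p of 0.05 and 2.93% an unadjusted p of 0.05. Of the receptors, 0 passed either, with the lowest unadjusted p for Ppara (0.135) and adjusted p of 1.00 for all. So the brain difference of Nr1h3 was not shown to differ from that in other tissues.

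The target lists were described between genotypes in the same way, and 0 listed genes passed the adjusted threshold in any tissue. PPAR targets were positive for 19 of 25 in liver, 20 of 24 in brain, 13 of 24 in heart and 20 of 23 in muscle. Their medians were 0.17, 0.15, 0.06 and 0.47, where the medians of all probes were the -0.01, -0.05, -0.02 and -0.07 given above. Of all probes, 17095 of 35240 were positive in liver, 15844 of 37836 in brain, 16673 of 34848 in heart and 12839 of 32382 in muscle. An unadjusted p under 0.05 by limma was reached by 2.13%, 2.62%, 7.51% and 2.48% of all probes in liver, brain, heart and muscle. Of the PPAR targets at that p, 3 were higher in KI/KI livers, 1 in brains and 5 in muscles, and 1 was lower in hearts (Hadha, -0.85). These genes were chosen for naming after their values were seen. In liver they were the fatty acid hydroxylases Cyp4a14 (1.26, standard error 0.35) and Cyp4a10 (0.88, standard error 0.30) and Vnn1 (0.82, standard error 0.23). In muscle they were Acot1 (2.06), Angptl4 (1.90), Plin5 (1.53), Cd36 (0.83) and Ucp3 (0.53), with adjusted p of 0.94. Adipocyte marker means in the same muscles were 5.11, 1.73 and 3.45 in WT and 3.60, 5.98 and 3.77 in KI/KI mice, with summed intensities of 196 to 1088 and 519 to 1556 times the 75th percentile, and the slow fibre means were those given above. Neutrophil marker means were -3.33, -2.72 and -4.33 in WT and 1.92, -3.47 and -0.88 in KI/KI muscles, highest in KI1, with summed intensities of 1.57 to 3.85 and 3.47 to 94.7 times the 75th percentile and 4 to 8 of 8 markers well above background. Of the 7 neutrophil markers tested in muscle, 7 were positive (median 3.04), 0 passed the adjusted threshold and 2 an unadjusted p under 0.05. The part of these cell types in the PPAR target values was not tested. Leaving out the KI1 muscle brought the PPAR median in muscle to 0.19 with 17 of 23 positive, and leaving out the KI3 muscle to 0.55 with 20, choices made after seeing the data. The named genes stayed positive without the KI1 muscle. Their differences were then 1.65 for Acot1, 2.45 for Angptl4, 1.30 for Plin5, 0.67 for Cd36 and 0.42 for Ucp3. Leaving out both left 1 KI/KI muscle (KI2, the one with the highest adipocyte mean) and a median of 0.15 with 16 positive, a value with no KI/KI spread.

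**Figure D5:**
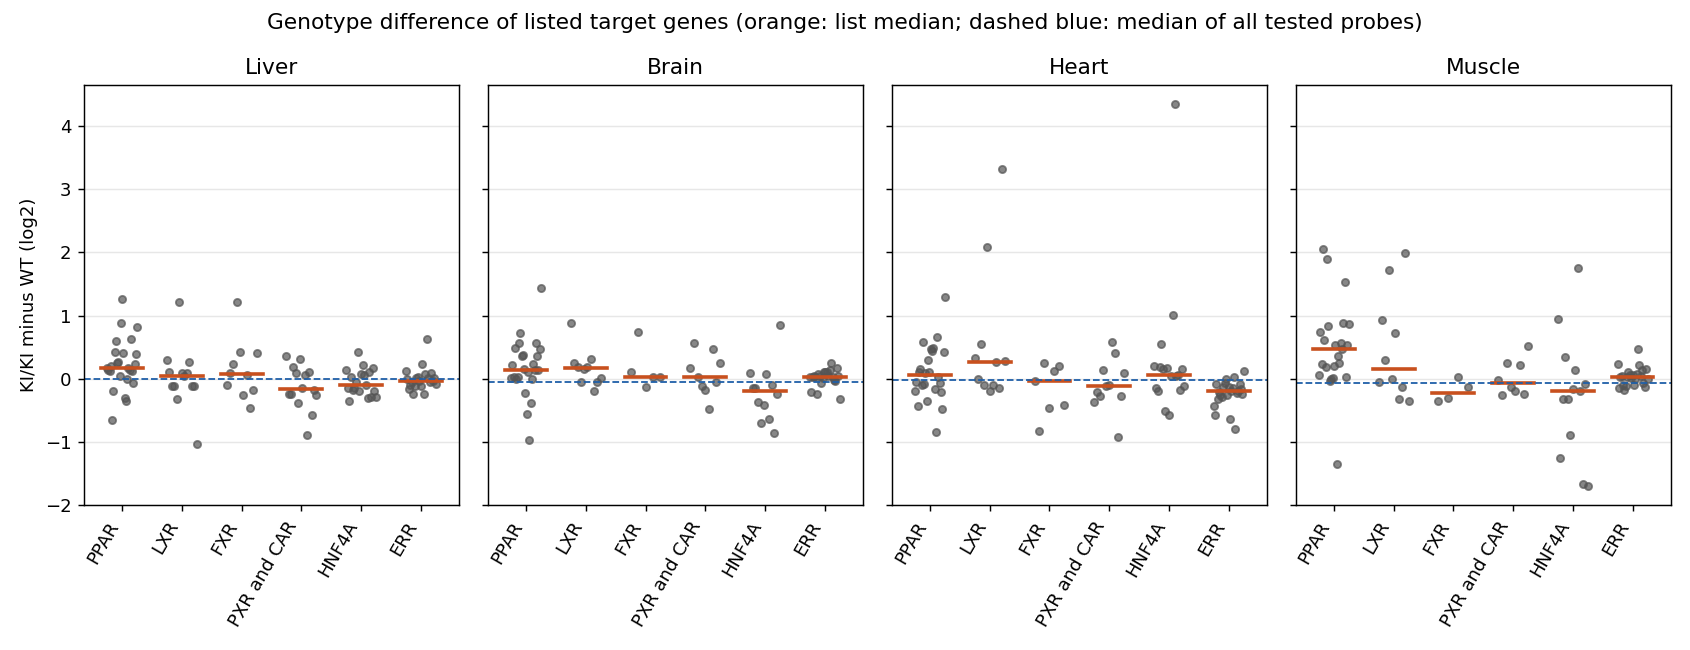
KI/KI minus WT values (log2, vertical axis) of the listed target genes of each receptor group in the 4 tissues. Points are genes, orange bars list medians and the dashed blue line the median of all tested probes. The PPAR targets in muscle have the largest list median (0.47), and the single points near 3.3 and 4.3 in heart are Scd1 and Pck1.

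Targets of the estrogen-related receptors in heart were negative for 21 of 23 (median -0.19), where 16673 of all 34848 probes tested were positive. Perm1 (-0.79) and Mfn2 (-0.63) had an unadjusted p under 0.05 by limma, which 7.51% of all probes in heart reached. Without the hearts of KI1 and KI3, which held adipocyte transcripts, the median was 0.16 with 18 of 23 positive. That value sets 1 KI/KI heart (KI2) against 3 WT hearts, so it has no KI/KI spread. It cannot tell whether KI2 or the omitted hearts stand apart. The slow fibre markers, of which 6 of 8 were higher in heart than in muscle (beside 21% of all probes), had means of 5.61 to 6.22 in WT and 5.33 to 5.45 in KI/KI hearts. In heart 1 of these 8 was positive (median -0.22), and 3 were lower at an unadjusted p under 0.05 by limma. Their part in the target values was not tested. The medians of the estrogen-related receptor targets were -0.03 in liver, 0.04 in brain and 0.03 in muscle. LXR targets had medians of 0.05, 0.17, 0.26 and 0.15 in liver, brain, heart and muscle, with Cyp7a1, the rate-limiting enzyme of bile acid synthesis, at 1.21 in liver (standard error 0.39, unadjusted p under 0.05 by limma), Scd1, a fatty acid desaturase, at 3.32 in heart, and Abcg1 at 0.93 in muscle. HNF4A targets had medians of -0.10, -0.19, 0.06 and -0.19, with Pck1 at 4.34 in heart. Scd1 and Pck1 lay beside the adipocyte markers in heart, which were 3.30, 0.64 and 4.30 in KI/KI and -2.51, 0.67 and 0.50 in WT mice. Pck1 is itself on that marker list. The summed adipocyte intensity was 230.2 to 246 times the 75th percentile in WT and 284 to 707 times in KI/KI hearts, with 7 to 8 of 8 markers well above background. In the single KI/KI heart left without KI1 and KI3, Scd1 differed from the WT mean by 0.18 and Pck1 by 1.18, and the LXR and HNF4A medians were 0.09 and 0.39, again with no KI/KI spread. FXR targets had medians of 0.08, 0.03, -0.04 and -0.22, and PXR and CAR targets of -0.16, 0.03, -0.12 and -0.07. Cyp7a1 is on the FXR list too, where it was the 1 of 10 genes tested in liver with an unadjusted p under 0.05 by limma. No list median takes account of whether a receptor raises or lowers a gene.

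The remaining members of the family moved as little. Of the other nuclear receptor genes, 30 to 34 could be tested in a tissue, with medians of -0.06, -0.16, 0.03 and -0.14 in liver, brain, heart and muscle. An unadjusted p under 0.05 by limma was reached by 2, 2, 1 and 0 of them, beside 2.13%, 2.62%, 7.51% and 2.48% of all probes. The 16 coregulators had medians of 0.04, -0.02, -0.03 and -0.11, with 1 at an unadjusted p under 0.05, Ppargc1b, the PGC-1 beta gene, at -0.60 in heart.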

How the data were processed

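RNA of 24 samples (4 tissues, 3 male mice of each genotype, each mouse a separate animal) was measured on 1-colour Agilent arrays. As intensity, the authors deposited processed signals of Agilent Feature Extraction 12.0.3.1, per the file headers, with the background removed and without scaling between arrays. The deposited series values are a score for each spot, the z-score of log10 signals within an array (recomputed within 0.005), and served as an alternative.

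Spots of a probe were averaged on the log2 scale after control spots and outlier flags were removed, and the 75th percentile of the array was subtracted. Names come from accessions through RefSeq tables of GRCm38.p6; the headers name mm9 for the array. A probe entered a genotype test if it was well above background in 3 or more of the 6 samples of a tissue, and a tissue test if this held in any tissue. Tests used limma 3.58.1 in R 4.3.3 with data.table (1.17.8) and statmod (1.5.0) (two-sided, Benjamini-Hochberg over all tested probes), and figures Python 3.11.15, pandas 2.3.3, numpy 2.4.6 and matplotlib 3.10.9. The number of arrays limits the precision, and with 3 mice against 3 no exact permutation test can give a p under 0.1. Procedures were tested on simulated data. The same animal gave all tissues, so mouse was tried as a block; deviations of 2 tissues of a mouse correlated at -0.32 to 0.38 over 36 pairs (median 0.09).

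The receptors and all lists were chosen with earlier results of these data known. All 10 receptors are named, with at most 4 genes per list and comparison by level in the brighter tissue and 3 genes per receptor by correlation. Alternatives were quantile normalization, normexp (offset 50, on median signals), the authors' table, other filters, mouse, age or slide as a block, robust eBayes, array weights, means over probes, 1 genotype alone, and left-out mice or arrays. Chosen after seeing the data were the 2-month mice alone, omission of arrays that stand apart, slide as a block between tissues, and array weights from probes without a missing spot.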

Additional observations from a re-analysis of the deposited data

How the results depend on the processing

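Of the recomputed genotype differences of receptors, 140 under other settings and 60 with a mouse left out kept their direction and stayed above the adjusted threshold. The exception was Nr1h3 in brain with array weights from probes without a missing spot (0.58, limma adjusted p = 0.0473). Differences smaller than their standard error were not followed. That setting gave 3435 called probes in brain and array weights from all probes 1, against 0. Requiring all 24 arrays to be well above background gave 19798 called probes between liver and brain, 17809 between liver and heart, 18595 between liver and muscle, 17516 between brain and heart and 18306 between brain and muscle, because fewer probes were tested. Between heart and muscle, WT arrays alone gave 11945 and KI/KI arrays alone 11076, with fewer samples. Slide as a block, added after seeing the data, gave 18416 between liver and heart, 17064 between liver and muscle, and 3 receptors between heart and muscle, against 5. The interaction count was 0 to 4 with each mouse left out. The mouse as a replicate block (correlation 0.026) gave 8, 10, 10, 9, 7 and 5 called receptors and changed no call.

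The following receptor differences between tissues changed sign. Quantile normalization gave 0.033 for Nr1i2 between brain and muscle and 0.22 for Esrra between heart and muscle. Normexp gave -0.40 for Nr1i2 and 0.042 for Esrra between heart and muscle. WT arrays alone gave 0.057 for Esrra between liver and brain and 0.15 between heart and muscle, KI/KI arrays alone 0.019 for Ppard between liver and brain, and omission of the KI3 muscle and the KI1 and KI3 hearts 0.14 for Esrra between heart and muscle. Slide as a block gave 0.67 for Nr1i3 between brain and heart, 2.36 for Nr1i3 and -0.30 for Esrrg between brain and muscle, and -0.52 for Nr1i2 between heart and muscle. With each mouse left out, the ranges were -0.17 to 0.017 for Ppard and -0.25 to 0.042 for Esrra between liver and brain, -1.10 to 0.23 for Nr1i3 between brain and muscle, and -0.050 to 0.71 for Nr1i2, -0.22 to 0.72 for Nr1i3 and -0.16 to 0.13 for Esrra between heart and muscle. The cause was not tested. Signals near background limit Nr1i2 and Hnf4a outside the liver.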
